A study of Mus musculus with 20 samples.

Results

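Ribosome biogenesis and RNA polymerase I genes were followed in mouse liver across fasting and refeeding in 2 Prox1 genotypes. The set was chosen by gene symbol: every row of the count table whose symbol begins with Utp, Nop or Rrp and a digit, the RNA polymerase I subunits Polr1a to Polr1e, Nol6, Nol8, Nol9, Nol10 and Nol11, and 14 further symbols (Fbl, Ncl, Npm1, Dkc1, Bop1, Pes1, Nob1, Mphosph10, Rrn3, Ubtf, Gar1, Nhp2, Wdr12 and Wdr43). This rule took 47 of 29915 genes, and all 47 passed the filter on low counts, which left 13894 genes. By role, 7 encode RNA polymerase I subunits or initiation factors, 20 act in the small subunit processome or late in 40S maturation, 11 act in 60S assembly, 7 are proteins of small nucleolar ribonucleoproteins (snoRNPs), and 2 are abundant nucleolar proteins.

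Messenger RNA was sequenced in 20 liver libraries from male mice on chow, held in 12 h of light and 12 h of dark. The groups were fasted and refed wild-type mice, titled Ctrl, and fasted and refed mice with a knock-in of Prox1 K556R in hepatocytes, titled Cre, with 5 libraries each. The K556R form, in which a lysine that can carry the small protein SUMO is replaced by arginine, was switched on by Cre when the mice were 8 weeks old. Sampling followed after a further 11 weeks, at Zeitgeber time 15 to 17. The labels used here give neither the promoter or vector of Cre nor the lengths of fasting and refeeding, and by the titles an effect of Cre cannot be told apart from one of K556R.

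Ribosomes are assembled in the nucleolus, where RNA polymerase I transcribes the precursor of most ribosomal RNA with the help of Ubtf and Rrn3. The precursor is modified by snoRNPs, cut and folded within the small subunit processome and pre-60S particles, and exported as 40S and 60S subunits. The process is known to respond to nutrients through mTORC1 and to the MYC family of transcription factors, and the liver makes ribosomes again when food returns after a fast.

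Total counts ran from 33746054 to 50647297 per library, and levels are given as CPM, read counts scaled to a common library size after TMM scaling. Batch 1 held 14 libraries and batch 2 held 6, with 1 in each group and 3 in refed K556R, and batch was a term of the fit reported here. Prox1 ranged from 121 to 223 CPM in fasted wild type, 93.3 to 133 in refed wild type, 85.0 to 126 in fasted K556R and 57.7 to 89.4 in refed K556R, and its mean genotype difference over both feeding states was -0.72 ± 0.10 (log2, SE; edgeR adjusted p = 0.00564). Pck1, a gluconeogenic gene that is high in fasting, had log2 fold changes of -2.78 on refeeding in wild type and -2.34 in K556R. The summed CPM of 7 hepatocyte markers was 100000 to 142000 in fasted and 102000 to 108000 in refed wild type. In K556R the sums were 125000 to 133000 fasted and 96400 to 111000 refed, without overlap. Whether this bears on the refeeding results was not tested. Refed K556R library 1_b1 stood apart in the summed level of 13 proliferation genes, at 139 CPM against 44.6 to 52.3 in the other refed K556R libraries. The labels do not say how the libraries relate to animals, so p-values measure the spread between these libraries. In bulk liver, fewer cells of a type and less RNA per cell cannot be told apart.

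Refeeding moved the module in both directions at once. In wild type, 15 of the 47 genes rose, against 20.9% of all genes tested, and 11 fell, against 24.2% (edgeR quasi-likelihood test, adjusted p under 0.05). In K556R, 14 rose against a background of 19.6% and 8 fell against 20.3%. The falling members were thus at or near the share of all genes, and the rising members were 31.9% of the set in wild type and 29.8% in K556R. The median log2 fold change of the members was 0.02 in wild type and 0.06 in K556R, beside -0.01 and 0.01 over all genes, so the set as a whole was not shifted far from other genes. The background moved with the scaling. Upper-quartile scaling gave 18 higher (26.2% of all genes) and 8 lower (19.8%) in wild type and 18 (23.6%) and 6 (16.9%) in K556R. Scaling by library totals alone moved the median of all genes by 0.10 and 0.13 and gave 20 higher (28.6% of all genes) and 7 lower (17.5%) in wild type and 22 (29.99%) and 5 (12.65%) in K556R. Within batch 1 alone, 9 rose (17.7% of all genes) and 9 fell (21.4%) in wild type and 7 (14.25%) and 7 (15.3%) in K556R, with fewer libraries in each group, and these member counts lie near the background.

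**Figure D1:**
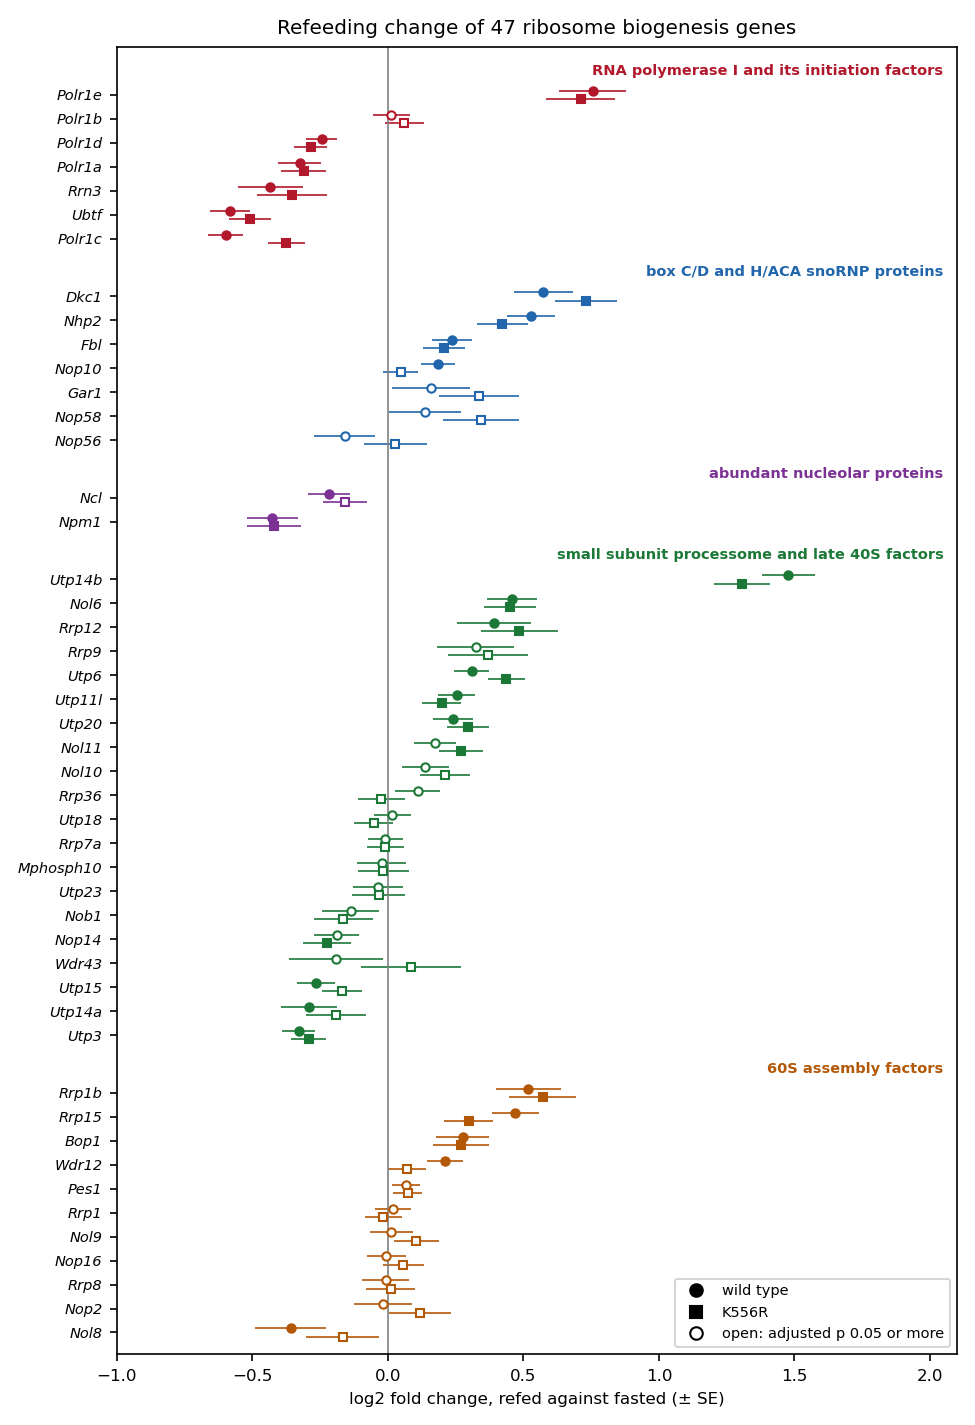
Log2 fold change on refeeding (x axis, refed against fasted, ± SE) of each of the 47 genes, grouped by role, in wild type (circles) and K556R (squares); filled symbols have an edgeR adjusted p under 0.05. Most RNA polymerase I genes lie left of 0 with Polr1e on the right, the snoRNP proteins lie mostly on the right, and Utp14b lies farthest from 0 at 1.48 in wild type and 1.31 in K556R.

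The calls were largely shared by the genotypes, among the members as among all genes. Of the 47 genes, 13 were higher on refeeding in both genotypes, against 16.1% of all genes, and 7 were lower in both, against 18.2%. Another 6 were called in wild type alone and 2 in K556R alone, 19 in neither, and 0 in opposite directions. Over all genes tested, 2230 were higher in both genotypes, of 2904 higher in wild type and 2728 in K556R. For lower genes the count in both was 2531, of 3359 in wild type and 2815 in K556R. By the stricter view of the libraries themselves, the CPM ranges of the fasted and refed groups did not overlap for 11 genes that were higher in wild type (15.9% of all genes) and 5 that were lower (18.7%). In K556R these counts were 9 (12.8%) and 6 (14.1%).

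Promoter sequence is shown for genes that fell and genes that rose in both genotypes, so that the letters can be read beside the values that follow. RefSeq windows on GRCm38.p6 were found for 39 of the 47 genes. In the 250 bases before the start, on either strand, CACGTG (the E-box that MYC and related factors bind, a palindrome) was found in 6 genes, 15.4%, against 6.9% of 27025 genes with a window. CCGGAAG (an ETS type site) was in 9, 23.1% against 7.8%, and GGGCGG (a GC box) in 26, 66.7% against 35.4%. CCAAT (the NF-Y box) was in 13, 33.3% against 37.5%. Motifs may overlap each other, a gene with several windows counts once, and base composition was not matched. This background holds every gene with a window, also those removed by the filter on low counts, which all members passed. Among genes higher in both genotypes 1 of 7 with a window had the E-box, among those lower in both 1 of 6, and among those called in neither 3 of 18. These counts are too few to set the groups apart. The 100 bases before the start are printed 5′ to 3′ on the strand of the gene, with a match in capitals. They are Rrn3 (fell, chr16:13780599-13780698, plus strand, E-box), Polr1a (fell, chr6:71908953-71909052, plus strand, CCAAT), Utp14b (rose, chr1:78658340-78658439, plus strand, E-box, within the annotated Acsl3 and Utp14b genes but outside their exons) and Dkc1 (rose, chrX:75095754-75095853, plus strand, none of the 4 motifs).
Rrn3: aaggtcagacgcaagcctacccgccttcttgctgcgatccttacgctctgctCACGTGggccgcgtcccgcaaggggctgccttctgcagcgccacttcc
Polr1a: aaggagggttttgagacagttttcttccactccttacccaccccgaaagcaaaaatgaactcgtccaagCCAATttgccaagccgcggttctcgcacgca
Utp14b: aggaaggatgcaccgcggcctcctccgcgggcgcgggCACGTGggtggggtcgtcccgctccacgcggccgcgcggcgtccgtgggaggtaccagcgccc
Dkc1: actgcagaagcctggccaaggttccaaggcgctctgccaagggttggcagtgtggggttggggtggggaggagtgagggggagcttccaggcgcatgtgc
In these windows Rrn3, which fell, and Utp14b, which rose, each hold the same E-box letters. A match is a description of the letters and no evidence of binding.

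The 7 genes of this set for RNA polymerase I and its initiation factors mostly fell on refeeding. Further factors of this polymerase outside the set, given below, went in both directions. Of the 7 genes, 5 fell, 1 rose and 1 was not called in each genotype, beside 24.2% of all genes lower in wild type and 20.3% in K556R. With library totals alone the K556R calls on Polr1a and Rrn3 were lost. Polr1c encodes a subunit of the assembly core that RNA polymerases I and III share, and lies at chr17:46243920-46248054 on the minus strand of GRCm38. Its CPM were 15.8, 18.2, 18.5, 19.3 and 19.5 in the fasted and 11.3, 11.7, 11.9, 12.2 and 13.1 in the refed wild-type libraries. In K556R they were 15.6, 15.8, 16.4, 17.5 and 19.2 fasted and 11.7, 12.1, 12.2, 12.7 and 14.01 refed. Every refed library was below every fasted library of its genotype. The log2 fold change was -0.60 ± 0.064 in wild type (edgeR adjusted p = 3.82e-07) and -0.38 ± 0.068 in K556R (edgeR adjusted p = 1.69e-04). Polr1d encodes the partner of Polr1c in that shared core. Polr1d measured 37.3, 40.1, 43.04, 45.9 and 46.03 CPM in fasted and 33.997, 35.1, 35.6, 36.97 and 37.3 in refed wild type. The K556R libraries gave 39.7, 40.7, 40.8, 41.7 and 43.8 fasted and 31.6, 32.7, 33.7, 34.3 and 34.9 refed. In wild type the lowest fasted value equalled the highest refed value to the digits shown, and the K556R groups did not overlap. The changes were -0.24 ± 0.057 (edgeR adjusted p = 0.00153) and -0.28 ± 0.060 (edgeR adjusted p = 8.10e-04).

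The largest subunit of the enzyme, Polr1a, carries most of the catalytic centre together with Polr1b. Polr1a had CPM of 30.1, 31.3, 31.7, 32.9 and 33.5 in fasted and 22.1, 23.7, 26.7, 27.2 and 27.6 in refed wild type. Fasted K556R livers had 25.4, 29.4, 33.9, 34.2 and 34.4 and refed ones 23.8, 24.8, 26.4, 26.7 and 29.7. The wild-type groups did not overlap, while 2 fasted K556R libraries, at 25.4 and 29.4, lay inside the refed range. Refeeding changes of Polr1a were -0.33 ± 0.079 in wild type and -0.31 ± 0.083 in K556R (edgeR adjusted p = 0.00215 and 0.00547). The K556R value with library totals alone was -0.18 (edgeR adjusted p = 0.0878). Polr1b, the next largest subunit, was at 18.6, 19.4, 20.9, 21.1 and 21.4 CPM in fasted and 17.7, 18.5, 20.8, 21.8 and 23.6 in refed wild type. In K556R it was at 18.7, 18.7, 18.8, 20.1 and 21.2 and 19.3, 20.8, 20.9, 21.02 and 22.7. Its groups overlapped almost fully in each genotype. Polr1b was not called, with changes of 0.01 ± 0.069 and 0.06 ± 0.072 (edgeR adjusted p = 0.898 and 0.548).

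Polr1e, a subunit that works with a partner as a built-in elongation and initiation module of the enzyme, went the other way. Wild-type CPM were 3.42, 3.66, 3.81, 3.89 and 4.01 fasted and 5.08, 5.78, 6.60, 6.99 and 7.34 refed. K556R CPM were 2.65, 3.25, 3.30, 3.79 and 4.80 fasted and 5.79, 5.82, 6.05, 6.15 and 6.31 refed. No refed library of either genotype was as low as any fasted one. The rise was 0.76 ± 0.12 in wild type (edgeR adjusted p = 4.62e-05) and 0.71 ± 0.13 in K556R (edgeR adjusted p = 1.60e-04). In batch 2 alone, which has 1 library in 3 of the 4 groups, the K556R value was 0.35 (edgeR adjusted p = 0.151).

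Ubtf encodes the architectural factor that keeps ribosomal DNA open and recruits the initiation machinery. Its wild-type values were 53.3, 57.3, 59.04, 61.1 and 63.04 CPM fasted and 38.6, 38.7, 39.1, 39.1 and 40.5 refed. In K556R livers the values were 48.9, 50.3, 60.004, 64.9 and 65.2 fasted and 38.8, 39.5, 40.95, 41.6 and 42.1 refed. The refed libraries were tightly grouped, and below all fasted libraries in each genotype. Refeeding changed Ubtf by -0.58 ± 0.074 in wild type (edgeR adjusted p = 2.57e-06) and -0.51 ± 0.077 in K556R (edgeR adjusted p = 2.80e-05). Rrn3 encodes the factor that makes the polymerase competent to start. Rrn3 stood at 20.2, 22.5, 24.3, 28.1 and 34.9 CPM in fasted and 15.7, 17.2, 20.2, 20.6 and 22.6 in refed wild type. In K556R it stood at 20.4, 20.96, 22.03, 23.7 and 24.1 and 16.1, 17.1, 17.7, 18.2 and 19.4. The wild-type groups overlapped, with fasted library 3_b1 far above the rest, and the K556R groups did not overlap. Its changes were -0.43 ± 0.12 and -0.35 ± 0.13 (edgeR adjusted p = 0.00593 and 0.0329). The K556R call on Rrn3 ended when any of 6 libraries was left out (2_b1 or 3_b1 of fasted K556R, 1_b1, 2_b1 or 3_b2 of refed K556R, or 1_b2 of refed wild type), with an edgeR adjusted p of up to 0.11, and under upper-quartile and library-total scaling.

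**Figure D2:**
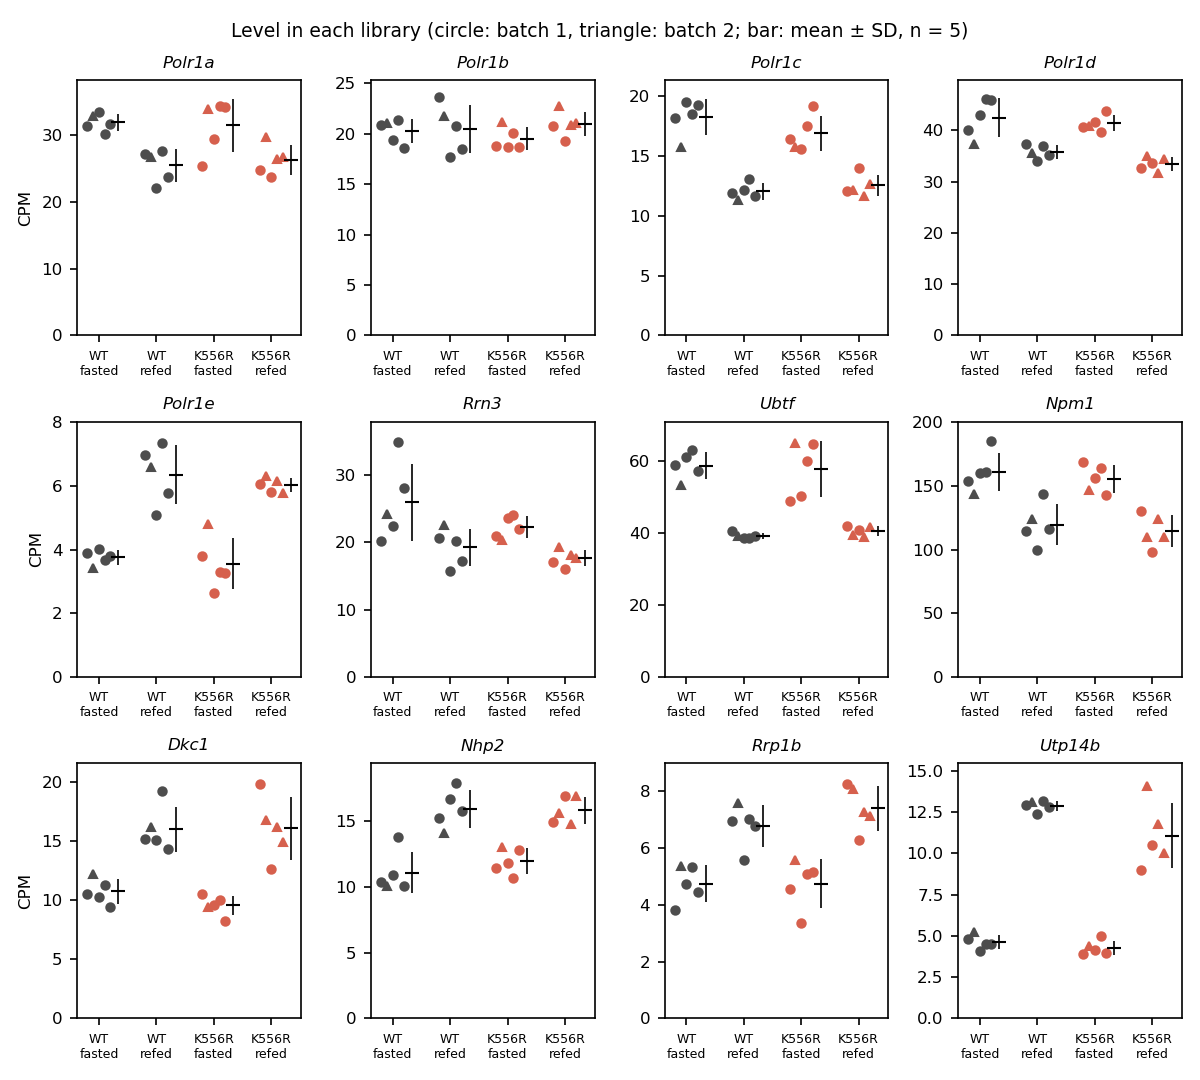
CPM (y axis, from 0) of 12 genes in every library of the 4 groups; circles are batch 1, triangles batch 2, and the bar beside each group is the mean ± SD of its 5 libraries. Polr1c, Ubtf and Npm1 are lower and Polr1e, Dkc1, Nhp2, Rrp1b and Utp14b higher in the refed groups of each genotype, and Polr1b is level.

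The proportions of some subunits were also followed within each library, where a ratio of counts does not depend on how libraries are scaled. Such a ratio does not show which of its genes moved. These ratios were chosen after the values were seen, so their separation is a description and no test. The log2 ratio of Polr1e to Polr1c counts lay between -2.34 and -2.21 in fasted and between -1.26 and -0.76 in refed wild type. In K556R it lay between -2.57 and -1.72 fasted and between -1.27 and -0.93 refed. Fasted and refed libraries were apart in each genotype, and the genotypes overlapped. The ratio of Polr1b to Polr1a, the subunits that form the catalytic centre, ran from -0.79 to -0.49 fasted and from -0.41 to -0.21 refed in wild type. The K556R ratios were -0.87 to -0.43 and -0.39 to -0.25. Here too the feeding states were apart in these libraries, in K556R narrowly, at -0.43 for the highest fasted and -0.39 for the lowest refed library.

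**Figure D3:**
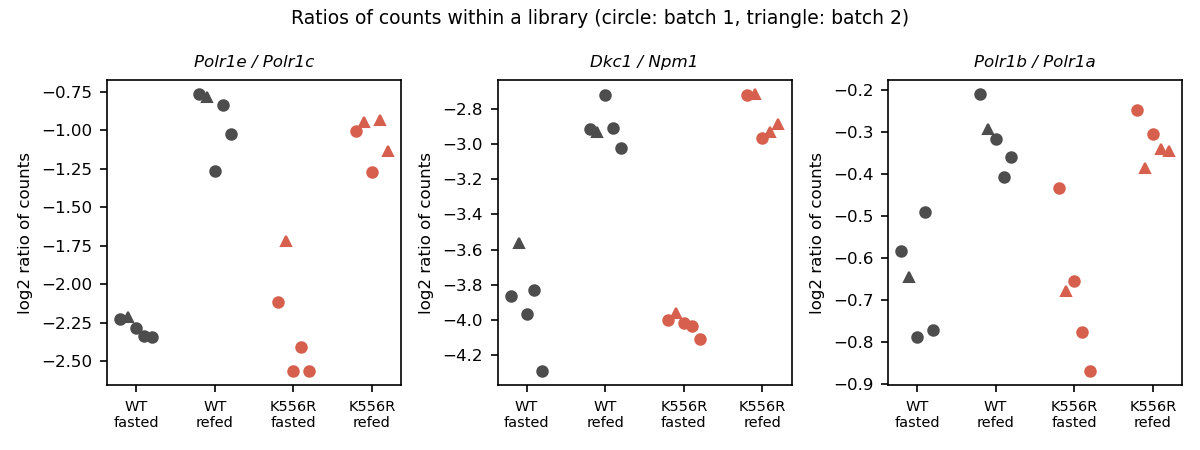
Log2 ratio of the counts of 2 genes in the same library (y axis) for Polr1e to Polr1c, Dkc1 to Npm1 and Polr1b to Polr1a in the 4 groups; each point is a library, circles are batch 1 and triangles batch 2. In all 3 panels the refed libraries of each genotype lie above its fasted libraries, for example -1.26 to -0.76 against -2.34 to -2.21 for Polr1e to Polr1c in wild type.

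Genes for proteins of the snoRNPs, which guide and carry out the chemical modification of ribosomal RNA, rose or were not called. Their difference from the polymerase genes of the set was not tested. In wild type 4 of the 7 snoRNP genes rose and 0 fell, beside 20.9% and 24.2% of all genes. In K556R 3 of 7 rose and 0 fell, beside 19.6% and 20.3%. The calls on Dkc1 and Nhp2 held when each library in turn was left out. Those on Nop10 in wild type and Fbl in K556R did not. Dkc1 encodes dyskerin, the pseudouridine synthase of the H/ACA class, on chrX:75095854-75109777. In wild type Dkc1 was at 9.45, 10.3, 10.5, 11.3 and 12.2 CPM fasted and 14.3, 15.1, 15.2, 16.2 and 19.2 refed. In K556R it was at 8.26, 9.41, 9.62, 9.98 and 10.5 fasted and 12.6, 14.9, 16.2, 16.8 and 19.8 refed. Refed libraries were above fasted ones throughout. The changes were 0.57 ± 0.11 (edgeR adjusted p = 2.25e-04) and 0.73 ± 0.11 (edgeR adjusted p = 3.95e-05). Nhp2 is a core protein of the same particles. Its CPM in wild type were 10.1, 10.1, 10.4, 10.9 and 13.8 fasted and 14.1, 15.2, 15.8, 16.7 and 17.9 refed. The K556R values were 10.7, 11.4, 11.8, 12.8 and 13.03 fasted and 14.8, 14.9, 15.6, 16.9 and 16.9 refed. The groups were apart in each genotype, although fasted wild-type library 3_b1 came close to the refed libraries. Nhp2 rose by 0.53 ± 0.090 in wild type and 0.42 ± 0.093 in K556R (edgeR adjusted p = 7.19e-05 and 0.0012).

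The other H/ACA proteins, Nop10 and Gar1, moved less. Nop10 had 33.3, 35.7, 36.8, 41.3 and 43.2 CPM in fasted and 38.1, 42.4, 43.1, 44.3 and 48.3 in refed wild type. In K556R Nop10 had 36.8, 37.8, 37.9, 38.6 and 40.6 and 33.97, 36.1, 37.5, 39.8 and 42.05. The groups overlapped in each genotype. Nop10 was called in wild type (0.18 ± 0.062, edgeR adjusted p = 0.0192) and not in K556R (0.05 ± 0.064, edgeR adjusted p = 0.599), and the difference of these changes was -0.14 (edgeR adjusted p = 0.9997). Gar1, a core protein of the H/ACA particle, was at 2.58, 2.75, 3.09, 3.38 and 4.23 CPM fasted and 3.09, 3.13, 3.52, 3.84 and 4.31 refed in wild type. The K556R libraries held 2.65, 3.04, 3.15, 3.20 and 3.33 and 3.17, 3.38, 3.82, 4.45 and 4.51. All 4 groups of Gar1 overlapped. Its values were 0.16 ± 0.14 and 0.33 ± 0.15 (edgeR adjusted p = 0.394 and 0.0792).

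Of the box C/D proteins, Fbl encodes fibrillarin, the methyltransferase that marks ribose groups of ribosomal RNA. Fbl was at 20.1, 20.8, 20.9, 23.7 and 24.6 CPM in fasted and 24.1, 24.1, 25.2, 27.6 and 28.7 in refed wild type. In K556R it was at 19.8, 20.9, 22.4, 22.6 and 24.2 and 22.7, 24.4, 24.8, 25.7 and 27.4. The groups overlapped slightly in each genotype. Fbl rose by 0.24 ± 0.074 in wild type and 0.21 ± 0.078 in K556R (edgeR adjusted p = 0.013 and 0.0405), and the K556R call ended without any of 9 libraries, with an edgeR adjusted p of up to 0.0958. Nop56 and Nop58 form the scaffold that holds Fbl. Nop58 measured 16.6, 19.3, 21.5, 22.1 and 26.2 CPM fasted and 18.2, 20.6, 20.9, 28.1 and 28.6 refed in wild type. In K556R it measured 14.5, 17.9, 18.96, 19.4 and 20.7 and 20.003, 22.2, 25.8, 26.3 and 26.6. The groups overlapped, in K556R by 1 value. Nop58 had 0.14 ± 0.13 in wild type and 0.34 ± 0.14 in K556R (edgeR adjusted p = 0.431 and 0.0553). Nop56 ranged from 21.9 to 37.6 CPM over all 20 libraries, with its highest value in fasted wild-type library 3_b1, and was called in neither genotype.

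The abundant nucleolar proteins were lower after refeeding. Npm1 encodes nucleophosmin, a chaperone that forms the outer layer of the nucleolus, on chr11:33152287-33163206. Npm1 stood at 144, 154, 160, 161 and 185 CPM in fasted and 99.3, 115, 116, 124 and 144 in refed wild type. The K556R values were 143, 147, 156, 164 and 169 fasted and 98.4, 110, 110, 124 and 130 refed. The wild-type groups touched, with the highest refed library at the level of the lowest fasted one, and the K556R groups were apart. The changes were -0.43 ± 0.094 (edgeR adjusted p = 8.84e-04) and -0.42 ± 0.099 (edgeR adjusted p = 0.002). Ncl encodes nucleolin, which binds ribosomal RNA precursors and ribosomal DNA. Ncl measured 215, 220, 234, 247 and 274 CPM fasted and 186, 193, 203, 205 and 237 refed in wild type. In K556R it measured 218, 221, 222, 230 and 239 and 182, 190, 194, 194 and 231. The groups overlapped in each genotype, in K556R through refed library 1_b1. Ncl was called in wild type (-0.22 ± 0.077, edgeR adjusted p = 0.0273) and not in K556R (-0.16 ± 0.081, edgeR adjusted p = 0.128). The wild-type call ended without fasted 3_b1 or 4_b1 or refed 1_b1, 2_b1 or 4_b1, with an edgeR adjusted p of up to 0.156, and under upper-quartile and library-total scaling, with no filter on low counts, in batch 1 or 2 alone and with only the compared groups. Set against Npm1 within a library, the log2 ratio of Dkc1 counts was -4.29 to -3.56 fasted and -3.02 to -2.72 refed in wild type, and -4.11 to -3.96 and -2.97 to -2.71 in K556R.

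In the small subunit processome and late 40S factors, 6 of 20 genes rose and 3 fell in wild type, and 7 rose and 2 fell in K556R. As shares these are 30% higher and 15% lower in wild type, beside 20.9% and 24.2% of all genes, and 35% and 10% in K556R, beside 19.6% and 20.3%. Utp14b changed most of all 47 genes. It is a copy of the processome protein Utp14a that arose by retroposition and is known for its role in the male germ line. Utp14b had 4.06, 4.50, 4.53, 4.83 and 5.23 CPM in fasted and 12.4, 12.8, 12.95, 13.1 and 13.2 in refed wild type. In K556R it had 3.89, 3.94, 4.14, 4.36 and 4.98 and 8.98, 10.03, 10.5, 11.8 and 14.1. Refed libraries were above fasted ones without overlap, and the refed K556R libraries were more spread out than the refed wild-type ones. The change was 1.48 ± 0.097 in wild type (edgeR adjusted p = 1.53e-09) and 1.31 ± 0.10 in K556R (edgeR adjusted p = 2.15e-08). Utp14b lies inside Acsl3, a fatty acid activating enzyme gene, on the same strand. In RefSeq both genes start at chr1:78657825, Acsl3 ends at 78707743 and Utp14b at 78667601, and the genes share 244 exon bases in GENCODE, 3.2% of the exon bases of Utp14b. Acsl3 rose by 1.43 ± 0.11 in wild type and 1.37 ± 0.12 in K556R, from 24.2 ± 2.58 to 65.2 ± 7.19 CPM in wild type (SD, n = 5). The gain of Utp14b was thus close to that of its host, and which transcript its reads came from was not tested. Utp14a, the parental gene on chrX:48256862-48282453, was at 13.7 to 21.3 CPM fasted and 11.9 to 14.9 refed in wild type, a change of -0.29 ± 0.10 (edgeR adjusted p = 0.0286). Its groups overlapped. The Utp14a call ended without fasted 3_b1 or 4_b1 or refed 2_b1 or 4_b1, with an edgeR adjusted p of up to 0.158, and was absent in 7 of 15 other settings, which include upper-quartile and library-total scaling, limma and no filter on low counts. The log2 ratio of Utp14b to Utp14a went from between -2.23 and -1.51 fasted to between -0.18 and 0.06 refed in wild type.

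Other processome members changed by less. Nol6, the mouse counterpart of yeast Utp22, is a processome subunit. In wild type Nol6 was at 13.9, 15.5, 16.8, 16.9 and 17.6 CPM fasted and 20.5, 20.5, 21.9, 23.8 and 23.9 refed. In K556R it was at 13.8, 14.6, 18.3, 19.1 and 19.1 and 21.2, 22.9, 23.9, 25.2 and 26.8. Its groups were apart in each genotype. Nol6 rose by 0.46 ± 0.091 and 0.45 ± 0.095 (edgeR adjusted p = 3.53e-04 and 8.01e-04). Utp6, another processome subunit, measured 30.003, 32.1, 33.7, 33.9 and 34.02 CPM fasted and 39.4, 39.98, 40.6, 40.9 and 41.8 refed in wild type. The K556R libraries gave 28.2, 31.3, 31.4, 31.7 and 32.8 and 37.02, 39.7, 41.6, 45.9 and 47.3. Again the groups did not overlap. Utp6 rose by 0.31 ± 0.064 and 0.44 ± 0.068 (edgeR adjusted p = 5.68e-04 and 3.62e-05). Utp20, a large scaffold protein, had 24.8, 26.8, 26.8, 27.3 and 27.6 CPM fasted and 28.6, 30.4, 32.01, 32.4 and 34.1 refed in wild type. In K556R it had 23.1, 23.98, 25.8, 25.9 and 26.98 and 24.6, 31.995, 33.2, 34.5 and 36.7. The wild-type groups were apart, and in K556R refed library 2_b1 lay among the fasted ones. The rises were 0.24 ± 0.073 and 0.29 ± 0.077 (edgeR adjusted p = 0.011 and 0.0046). Rrp12 rose by 0.39 ± 0.14 and 0.48 ± 0.14, and Utp11l by 0.25 ± 0.069 and 0.20 ± 0.073. Rrp12 is a late factor of 40S export. The wild-type call on Rrp12 (edgeR adjusted p = 0.0248) ended without fasted 1_b1, 1_b2 or 2_b1 or refed 1_b1 or 3_b1, at up to 0.0738, and the K556R call on Utp11l (edgeR adjusted p = 0.0353) ended without any of 8 libraries, at up to 0.0807.

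Among the processome genes that fell, Utp3 encodes a protein also known as SAS10, and Utp15 a subunit of the subcomplex that binds the 5′ end of the precursor. Utp3 was at 26.1, 27.9, 28.96, 29.1 and 32.3 CPM in fasted and 21.3, 22.6, 22.8, 23.4 and 24.6 in refed wild type. In K556R it was at 27.97, 28.1, 28.7, 29.4 and 31.1 and 21.95, 22.6, 22.9, 24.6 and 25.6. Refed libraries were below fasted ones in each genotype. The changes were -0.33 ± 0.062 and -0.29 ± 0.065 (edgeR adjusted p = 2.06e-04 and 0.00128). Utp15 had 10.2, 10.3, 11.02, 11.8 and 12.7 CPM fasted and 9.03, 9.18, 9.36, 9.46 and 9.52 refed in wild type. The K556R values were 10.4, 10.5, 10.7, 11.2 and 11.4 and 8.68, 8.95, 9.35, 9.72 and 10.8. Its wild-type groups were apart and its K556R groups overlapped. Utp15 was called in wild type (-0.27 ± 0.071, edgeR adjusted p = 0.00423) and not in K556R (-0.17 ± 0.074, edgeR adjusted p = 0.0734). The wild-type call ended under library-total scaling. Nop14, a binding partner of the methyltransferase Emg1, was called in K556R alone (-0.22 ± 0.087, edgeR adjusted p = 0.0465), beside -0.19 ± 0.083 in wild type (edgeR adjusted p = 0.0693). That call ended when any of 13 libraries was left out, at up to 0.209. Nol11 was also called in K556R alone (0.27 ± 0.081, edgeR adjusted p = 0.0123), and this ended without refed K556R 1_b1 or fasted K556R 1_b2, at up to 0.0759. Rrp9, Nol10, Rrp36, Utp18, Rrp7a, Mphosph10, Utp23, Nob1 and Wdr43 were called in neither genotype. Of these Rrp9, a protein of the U3 snoRNP, came closest, with 0.32 ± 0.14 and 0.37 ± 0.15 (edgeR adjusted p = 0.0679 and 0.0514).

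The 60S assembly factors had the smallest median absolute change of the larger classes. In wild type 4 of 11 rose (36.4%) and 1 fell (9.09%), beside 20.9% and 24.2% of all genes. In K556R 3 rose (27.3%) and 0 fell, beside 19.6% and 20.3%. The median absolute log2 change was 0.07 in wild type and 0.11 in K556R, beside 0.28 and 0.26 over all genes. Rrp1b and Rrp15 act in pre-60S maturation and led the rises. Rrp1b was at 3.80, 4.45, 4.73, 5.34 and 5.38 CPM fasted and 5.56, 6.77, 6.94, 7.02 and 7.57 refed in wild type. In K556R it was at 3.36, 4.55, 5.08, 5.16 and 5.59 and 6.28, 7.12, 7.28, 8.09 and 8.24. The groups were apart in each genotype. Rrp1b rose by 0.52 ± 0.12 and 0.57 ± 0.12 (edgeR adjusted p = 0.00144 and 0.00102). Its relative Rrp1 was more abundant and was not called, with 0.02 ± 0.065 and -0.02 ± 0.068. Rrp15 measured 5.76, 6.13, 6.38, 6.52 and 6.95 CPM fasted and 8.28, 8.43, 8.53, 9.01 and 9.74 refed in wild type. The K556R libraries gave 5.68, 6.37, 7.15, 7.27 and 7.29 and 7.40, 7.91, 8.72, 9.03 and 9.57. These groups did not overlap either. The changes of Rrp15 were 0.47 ± 0.086 and 0.30 ± 0.090 (edgeR adjusted p = 1.56e-04 and 0.0118).

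The PeBoW complex is formed by Pes1, Bop1 and Wdr12 and is needed for 60S formation. The changes of its genes were all above 0 in both genotypes, and differences between these genes were not tested. Bop1 rose by 0.28 ± 0.099 in wild type and 0.27 ± 0.10 in K556R (edgeR adjusted p = 0.0279 and 0.0452). Wdr12 was called in wild type (0.21 ± 0.067, edgeR adjusted p = 0.0141) and not in K556R (0.07 ± 0.070, edgeR adjusted p = 0.451). Pes1 was not called, with 0.07 ± 0.052 and 0.07 ± 0.054, and its 20 libraries stayed between 27.5 and 31.7 CPM. These are weak calls. Bop1 in wild type ended without fasted 1_b1, 1_b2 or 2_b1 or refed 1_b1 or 3_b1 (edgeR adjusted p up to 0.0726), Bop1 in K556R without any of 15 libraries (up to 0.156), and Wdr12 without fasted wild type 1_b2 (0.0573). Nop10 in wild type likewise ended without fasted 1_b1, 1_b2 or 2_b1 or refed 3_b1 (up to 0.0662). Nol8 fell in wild type (-0.36 ± 0.13, edgeR adjusted p = 0.0292), and this ended without fasted 3_b1 or 4_b1 or refed 1_b1, 2_b1 or 4_b1 (up to 0.0977) and under upper-quartile and library-total scaling, with no filter on low counts, in batch 1 or 2 alone and with only the compared groups. Nop2, Nop16, Nol9 and Rrp8 were called in neither genotype.

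Levels per length of transcript differed widely between the genes. In fasted wild type Npm1 was highest at 98.5 CPM per kb, followed by Polr1d at 35.5, Nop10 at 34.3, Ncl at 29.0 and Rrp1 at 26.2. Wdr43 was lowest at 0.48, below Utp14b at 0.63 and Rrp1b at 0.97. Among Polr1a to Polr1e, Polr1e was lowest per kb, at 1.26 fasted and 2.13 refed in wild type. Polr1b, which was not called, was at 5.07 in fasted wild type, above Polr1a, which fell, at 3.46. The spread of libraries within a group was smallest for Ubtf in refed wild type, with a coefficient of variation of 1.91%, and largest for Wdr43 in refed K556R, at 23.3%.

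**Figure D4:**
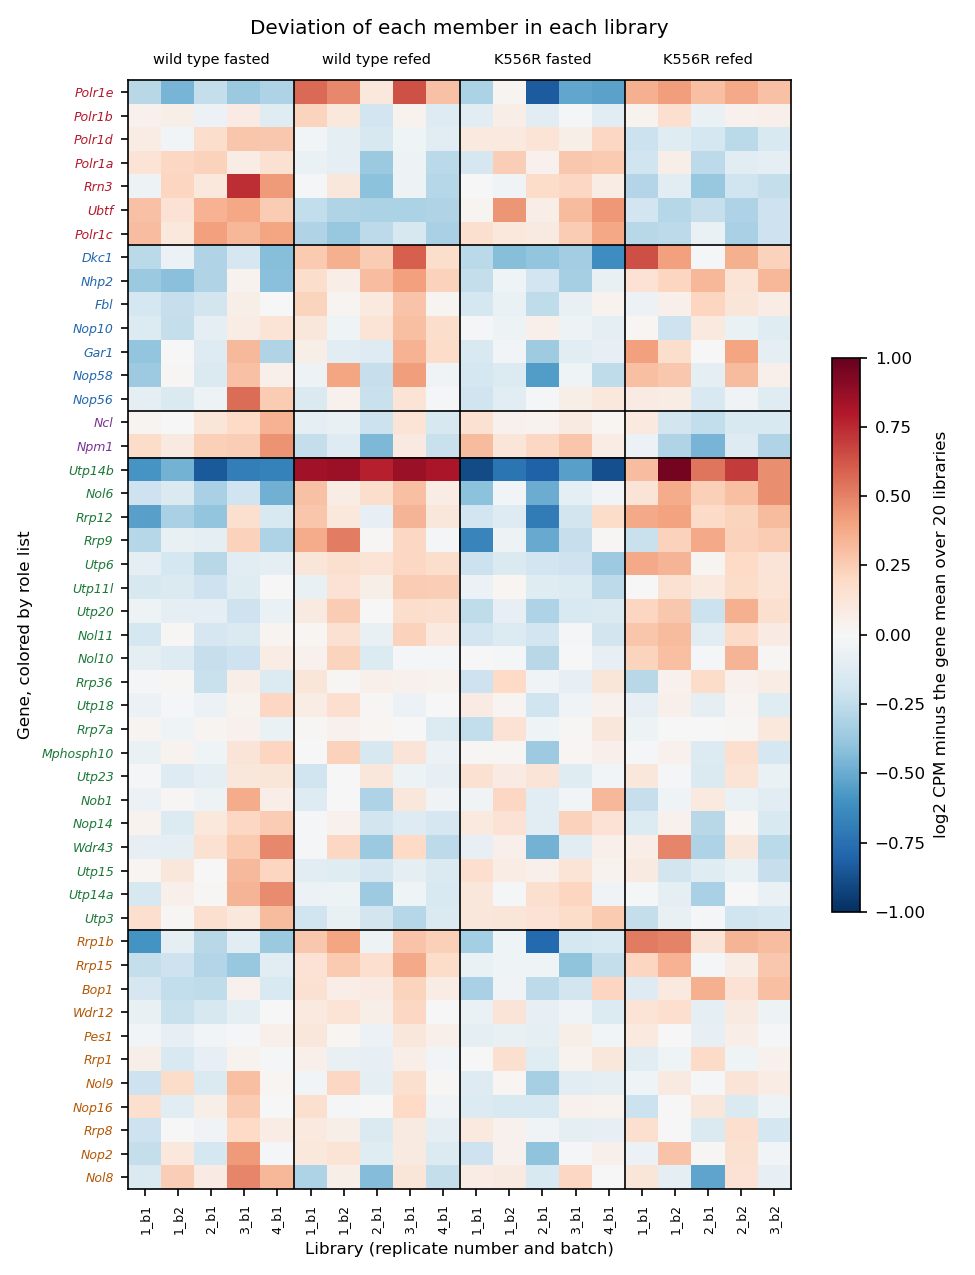
Log2 CPM of each gene (rows, colored by role) in each of the 20 libraries (columns, by group), as the difference from the gene's mean over all libraries; red is higher and blue lower, with the scale ending at -1 and 1. Fasted and refed blocks differ in opposite directions for Polr1e and Polr1c. By the median deviation over these genes, fasted K556R library 2_b1 was lowest at -0.12 and refed wild-type library 3_b1 highest at 0.13. Fasted wild-type library 3_b1 and refed K556R library 2_b2 followed at 0.11 each.

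The libraries of a group did not share a level of the whole module. The median deviation of the 47 genes from their own means ran from -0.09 to 0.11 in fasted wild type, -0.08 to 0.13 in refed wild type, -0.12 to 0.01 in fasted K556R and -0.03 to 0.11 in refed K556R (log2 CPM). The 4 ranges overlapped. Fasted K556R library 2_b1 was lowest at -0.12, with the lowest Polr1e, Rrp1b and Rrp12 of its group.

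Genotype left no called difference among the 47 genes. The comparison of K556R with wild type called 0 members in fasted livers, 0 in refed livers and 0 in the mean over both, where the share of all genes called was 0, 0 and 0.0288% (edgeR). DESeq2 and limma also called 0 members in each. At an unadjusted p under 0.05 the members numbered 0 fasted, 1 refed and 2 in the mean, out of 1136, 693 and 1288 genes of all tested. The median absolute log2 difference of the members was 0.06 fasted and 0.05 refed. The 95% interval of the difference stayed within a 1.5-fold change for 46 of 47 genes in fasted livers, all but Wdr43, and for 47 of 47 in refed livers.

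The members with the lowest p in these comparisons are given as values. Utp14b had a refed genotype difference of -0.29 ± 0.099 (95% interval -0.50 to -0.09; edgeR adjusted p = 0.965), with 8.98, 10.03, 10.5, 11.8 and 14.1 CPM in refed K556R against 12.4, 12.8, 12.95, 13.1 and 13.2 in refed wild type. The groups overlapped through 1 library, and the host gene Acsl3 had a difference of -0.11 ± 0.11. The mean difference of Utp14b over both states was -0.21 ± 0.070 and that of Rrn3 was -0.19 ± 0.087 (edgeR adjusted p = 0.36 and 0.521). Nol9, a kinase that acts on the 5′ ends of ribosomal RNA fragments, was at 17.3, 18.02, 20.2, 22.7 and 24.6 CPM in fasted wild type and 15.9, 18.3, 18.6, 18.7 and 20.2 in fasted K556R. Those groups overlapped, and the difference was -0.16 ± 0.079 (edgeR adjusted p = 0.617). Nop16, a 60S factor, was at 30.02, 32.4, 33.8, 36.3 and 38.8 and 29.2, 29.2, 29.6, 33.4 and 33.6 CPM in the same groups, a difference of -0.14 ± 0.073 (edgeR adjusted p = 0.642). These too overlapped. Utp18, a processome subunit, differed by -0.11 ± 0.071 in refed livers (edgeR adjusted p = 0.965). Nop10 differed by -0.12 and Polr1c by 0.11 in refed livers (edgeR adjusted p = 0.965 for each). In fasted livers Polr1c differed by -0.11 and Rrn3 by -0.23 (edgeR adjusted p = 0.728 and 0.666). Over both states the mean differences of Nop16 and Nol9 were -0.11 and -0.12 (edgeR adjusted p = 0.539 and 0.544).

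The refeeding response itself was compared between genotypes by the interaction of genotype and feeding, which called 0 members against 0% of all genes (edgeR). DESeq2 and limma called 0 members, and 1 member and 553 genes of all had an unadjusted p under 0.05. That member was Polr1c, whose fall was smaller in K556R by 0.22 ± 0.093 (95% interval 0.03 to 0.42; edgeR adjusted p = 0.9997). Next by p were Nop10 at -0.14, Wdr12 at -0.14 and Rrp15 at -0.17 (edgeR adjusted p = 0.9997 for each). The interval of the interaction stayed within a 1.5-fold change for 44 of 47 genes, the exceptions being Wdr43, Nop58 and Gar1. The 6 genes called in wild type alone and the 2 called in K556R alone are therefore not shown to respond differently.

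The other genes of the pathway, taken from lists of known factors, also held genes called in each direction. The counts in these lists and in the marker lists stand beside 20.9% of all genes higher and 24.2% lower in wild type, and 19.6% and 20.3% in K556R. Of 20 further RNA polymerase I factors, 3 rose and 4 fell in wild type and 2 rose and 3 fell in K556R, with a median of 0.08 in each. The 2 subunits of the selectivity factor SL1 with the lowest p moved apart, Taf1b by 0.78 ± 0.14 and Taf1d by -0.50 ± 0.097 in wild type (edgeR adjusted p = 1.55e-04 and 3.05e-04). Mybbp1a, a nucleolar protein, rose by 0.67 ± 0.088, and Twistnb, a subunit of the polymerase stalk, fell by 0.30 ± 0.090 on the log2 scale. Of 43 other 40S assembly factors 16 rose and 8 fell in wild type, among them Pno1 (0.35), Ltv1 (0.51), Tsr2 (0.48) and Riok3 (-0.31), and 14 rose and 7 fell in K556R. Of 53 other 60S assembly factors 14 rose and 8 fell in wild type and 13 rose and 5 fell in K556R. Examples are Pinx1 at 1.12, Ddx31 at 0.52, Las1l at 0.26 and Sbds, which helps release a factor from the new 60S subunit, at -0.39 in wild type.

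Genes for snoRNP assembly and the RNA exosome, which trims the 3′ ends of ribosomal RNA precursors, gave 11 of 22 higher and 1 lower in wild type, and 9 higher and 3 lower in K556R. The exosome subunits Exosc9, Exosc7, Exosc2 and Exosc10 rose by 0.70, 0.52, 0.39 and 0.35 in wild type and by 0.63, 0.38, 0.34 and 0.35 in K556R. Cytosolic ribosomal protein genes, the products that are built into the subunits, were nearly still, with 3 of 78 higher and 1 lower in wild type, 2 and 1 in K556R, and medians of 0.05 in each. Of 10 RNA polymerase III subunits 3 rose and 1 fell in wild type, and 3 rose and 0 fell in K556R.

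Of the upstream regulators, 12 tested genes of the MYC network gave 3 higher and 6 lower in each genotype. Myc itself was at 3.07 to 7.23 CPM in fasted and 1.34 to 7.34 in refed wild type and was not called (-0.72 ± 0.40, edgeR adjusted p = 0.16; in K556R -1.11 ± 0.43, edgeR adjusted p = 0.0509). Mlxipl, the glucose-responsive factor ChREBP, rose by 1.22 ± 0.21 with its partner Mlx by 0.47 ± 0.063, while Mlxip had -0.89 ± 0.070 and Mxd1 -0.91 ± 0.12 in wild type. Of 21 mTORC1 pathway genes 13 fell and 2 rose in wild type, and 8 fell and 2 rose in K556R. The lowest p in that list belonged to Flcn (-1.14 ± 0.086), Eif4ebp2 (-0.54 ± 0.063), Sesn2 (-1.62 ± 0.22) and the RNA polymerase III repressor Maf1 (-0.62 ± 0.089). These are mRNA levels, and the activity of mTORC1 or of RNA polymerase I was not measured.

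Markers of other cell types and of dividing cells are set beside these results. The 12 tested proliferation genes had 0 calls in wild type and 5 higher and 1 lower in K556R on refeeding. The library that stood apart in those genes, refed K556R 1_b1, also had the highest Ncl of its group, at 231 CPM. Without it and fasted K556R 1_b1, 14 members rose (18.6% of all genes) and 7 fell (18.9%) in K556R. In wild type 16 rose (22.9% of all genes) and 11 fell (26.03%). Of 7 endothelial markers 4 fell in wild type and 2 in K556R on refeeding, with sums of 121 to 189 CPM fasted and 128 to 141 refed in wild type. Of 7 hepatocyte markers 1 rose and 3 fell in wild type, and 0 rose and 4 fell in K556R. Of 8 stellate markers 2 rose in K556R, and lymphocyte, Kupffer and cholangiocyte markers had 0 calls in either genotype (edgeR). No marker was at 0 in a group, summed levels were 3.01 to 18.7 CPM for lymphocytes, 39.0 to 225 for Kupffer cells and macrophages and 119 to 248 for stellate cells, and their part in the refeeding results was not tested.

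Some genes share bases with a neighbour on the other strand. The shares of exon bases were 12.5% for Rrp7a with Serhl, 11.5% for Utp14a and for Utp23, 10% for Rrp8 with Ilk and 8.2% for Nol11, and at most 5.3% for any other gene. The labels do not say whether these libraries kept the strand, so reads over those bases cannot be assigned.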

How the data were processed

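The data were raw read counts per gene in 20 mouse liver libraries, deposited by the authors as 1 table of 29915 genes. Per the labels' protocols, messenger RNA was taken with poly-T beads and primed with random hexamers. Per the submitters' processing notes, the genome build was mm10, and the tools named are TopHat, STAR, STAR-Fusion, HTSeq, edgeR and DESeq2. Not given in the sources used here are the tool that made the counts, its annotation and its strand setting. Total counts per library were 33746054 to 50647297. Groups and batches came from the labels.

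Genes with low counts were removed with filterByExpr (at least 10 in enough libraries and 15 in total). Libraries were TMM scaled, and edgeR 4.0.16 (R 4.3.3) gave robust quasi-likelihood F tests. All 20 libraries were in 1 fit with group and batch as terms, so all groups share 1 estimate of spread. Benjamini-Hochberg adjustment covered all 13894 genes that passed the filter, and calls used 0.05. CPM per kb used the principal GENCODE M21 transcript, and positions follow the same annotation (GRCm38, which mm10 names). Promoter windows and sequences are RefSeq's on GRCm38.p6. The scripts were tested on simulated counts with known changes. The limit set there on false calls covered edgeR and limma and not DESeq2.

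The members, the pathway and marker lists and the tests were chosen with earlier results of these data known. Values for every library are given by this rule: all polymerase I and snoRNP genes, the 8 called members of lowest p in each direction on refeeding, the 2 of lowest p in each role, and the 4 of lowest p in each genotype comparison, where some are given by range or difference alone. Up to 4 genes of each pathway list are named by lowest p. Alternatives were RLE, upper-quartile and library-total scaling, DESeq2 1.42.0, limma 3.58.1 with quality weights per sample, the filter dropped or made stricter (CPM of 1 in 5 libraries), either batch by itself or no term for it, a fit with a replicate block, fits without robust estimation or with the compared groups alone, and fits without some libraries. CPM values of single libraries that would round to a whole number are printed with more digits than the others, which says nothing of their precision.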

Additional observations from a re-analysis of the deposited data

Results flagged for a closer look

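In groups of 5 libraries, a value was singled out where its gap to the nearest other library was an unusually large part of the group's whole range (Dixon's test at 95%). Of 188 groups of members 9 were singled out, and chance alone gives about 1 in 20. In fasted K556R library 2_b1, Mphosph10 was low at 10.2 CPM with the next at 13.2, and Nol10 was low at 6.85 with the next at 7.85. In refed K556R library 1_b1, Ncl was high at 231 CPM with the next at 194, and Rrp9 was low at 3.66 with the others up to 5.56. In fasted wild-type library 3_b1, Nhp2 was high at 13.8 CPM with the next at 10.9, and Utp20 was low at 24.8 with the next at 26.8. Utp14a was low at 12.2 CPM in refed K556R library 2_b1. Rrp7a was low at 17.7 CPM in refed wild-type library 4_b1. Ubtf was high at 40.5 CPM in refed wild-type library 1_b1, within a group whose other libraries reached only 39.1. Of the calls on these genes, those on Nhp2, Utp20 and Ubtf held when each library in turn was left out, and those on Ncl and Utp14a in wild type did not.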

How the results depend on the processing

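Of 278 member counts recomputed under the alternatives, 268 stayed within 1.5 times the reported count, and no gene's called change reversed. In wild type the number of members higher, 15, was 9 in batch 1 alone (17.7% of all genes) and 2 in batch 2 alone (3.90%), and the number lower, 11, was 7 with library totals (17.5%) and 0 in batch 2 alone (4.12%). In K556R the number higher, 14, was 22 with library totals (29.99% of all genes), 7 in batch 1 alone (14.25%) and 5 in batch 2 alone (9.495%), and the number lower, 8, was 5 with library totals (12.65%) and 3 in batch 2 alone (9.44%). The share of all genes called moved with the members in these settings. Batch 1 alone lost the wild-type calls on Utp20, Fbl, Wdr12, Nop10, Rrp12, Ncl, Bop1, Utp14a and Nol8 and the K556R calls on Utp20, Rrp12, Rrp15, Nol11, Rrn3, Utp11l, Fbl and Bop1. With the replicate block the K556R count of lower members was 5 (16.3% of all genes), and the K556R calls on Polr1a, Rrn3, Nop14, Utp11l, Fbl and Bop1 were lost. Replicate numbers did not pair the libraries as a whole. Over 24 same-numbered pairs the correlation of deviations ran from -0.37 to 0.63 with a median of -0.06. Only 4 of 18 libraries matched best with their own number. The 0.63 was that of fasted and refed K556R 1_b1, which also had the highest lymphocyte marker sums, at 16.3 and 18.7 CPM. Batch 2 has 1 library in 3 of the 4 groups, and these fits have fewer libraries. Leaving out each library in turn gave 11 to 17 higher (18.6% to 23.2% of all genes) and 8 to 12 lower (21.04% to 25.2%) in wild type. For K556R the counts were 11 to 16 higher (18% to 20.8% of all genes) and 6 to 8 lower (16.8% to 20.3%). The genotype and interaction comparisons called 0 members in every setting run. Utp14b was called in both genotypes under all alternatives.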
